A study of Mus musculus with 4 samples.

Results

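Nucleases and lipid enzymes were examined, under the heading of organelle clearance, as a set of 9 genes: Dnase2b, Dnase2a, Dnase1, Dnase1l1, Dnase1l3, Endog, Trex1, Pla2g16 and Alox15. Whether each member takes part in clearing nuclei or other organelles of the lens was not tested. The members were chosen by gene symbol, so that every probe carrying 1 of these symbols was taken. The array held 15 such probes, which represented 8 of the 9 genes, and no probe carried the symbol Endog, which was not analysed here. Of the 28853 genes with a probe, 11518 were above background on enough arrays to be tested, and 3 members were among them, namely Dnase2b, Trex1 and Alox15.

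Lens fiber cells become transparent by discarding their nuclei, mitochondria and endoplasmic reticulum as they mature. DNase IIβ, the product of Dnase2b, is an acid nuclease of lysosomes that degrades the DNA of fiber nuclei, and the transcription factor HSF4 is known to promote its expression. The phospholipase encoded by Pla2g16 (now Plaat3) is required to break down organelle membranes in the lens, and 12/15-lipoxygenase, the product of Alox15, oxidizes membrane lipids and takes part in the loss of mitochondria from reticulocytes. Mice lacking the RNA-binding protein CELF1 in the lens are known to retain nuclei in their fiber cells, and the comparison asks how these enzymes are expressed in such lenses.

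RNA at postnatal day 6, from 1 lens for each sample per the study's methods, was hybridized to Illumina MouseWG-6 v2.0 BeadChips, with 2 Celf1 cKO lenses (replicates A and B) and 2 Control lenses (replicates A and B). The cKO mice carried a germline lacZ knock-in allele of Celf1 (Celf1 lacZKI), a floxed allele (Celf1 flox) and the Pax6GFPCre transgene, which is active from the lens placode onward and also in the pancreatic lineage. Control mice were Celf1 lacZKI/+, so the lacZ knock-in allele was shared by both groups, and the strain background was a mix of C57BL/6 and FVB. Whether the Control lenses carried the Cre transgene is not given in the sources used here. Nothing in the labels says whether the lenses of a group came from separate litters, and p-values measure only the spread between these samples.

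The cKO arrays were the brighter ones, with 16261 and 16925 probes above background against 14542 and 14180 on the Control arrays. Celf1 itself was reduced in cKO lenses, by 1.43 ± 0.19 (SE) on the log2 scale (limma, adjusted p = 0.0098), a call that was lost without Control B (adjusted p = 0.056). All 9 lens fiber marker genes with a probe were detected on every array. Xist, which silences an X chromosome, had log2 signals of 7.42 and 7.27 in cKO lenses against 4.26 and 4.39 in Control lenses, and the Y-linked Ddx3y had 6.81 and 4.82 against 8.99 and 8.82. Of the other Y-linked genes, Uty had 4.67 and 4.89 against 4.47 and 4.52 and was above background on the cKO arrays alone, Eif2s3y was above background on 1 cKO array, and Kdm5d on 1 Control array. Xist and Ddx3y were above background on both cKO arrays, and whether each cKO sample held RNA of a single lens was not tested. Genotype and sex cannot be told apart in these samples, for any of the genes. As whole lenses were measured, fewer cells of a type and less RNA per cell cannot be told apart either.

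Probes are 50-base oligonucleotides attached to beads, and the 3 shown here are those that carried the brightest signal of the members. The first reads Dnase2b from base 510 of its transcript (chr3:146256434-146256483, minus strand), and the others read Trex1 from base 761 (chr9:108960695-108960744, minus strand) and base 851 (chr9:108960619-108960668, minus strand). Positions are those of the authors' table, which names no genome build. They are written in lower case throughout because no base is singled out, and each can be read in at least 1 frame without a stop codon.
Dnase2b, base 510: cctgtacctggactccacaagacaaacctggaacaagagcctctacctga
Trex1, base 761: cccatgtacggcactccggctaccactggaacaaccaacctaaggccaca
Trex1, base 851: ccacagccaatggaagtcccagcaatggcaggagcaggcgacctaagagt

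Dnase2b was read by 2 further probes toward the end of the transcript, from bases 2329 and 2529. The table places the first of these at chr3:146518679-146518728 and the other at chr3:146244057-146244106. That separation is wider than the distance from base 510 to base 2529 in the same table, so the positions of the Dnase2b probes were used only as labels. The Trex1 probes at bases 761 and 851 do not overlap.

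Dnase2b was reduced in Celf1 cKO lenses at all 3 of its probes. The probe at base 510 had an unnormalized intensity of 231.6 in cKO A, 145.7 in cKO B, 532.7 in Control A and 398.3 in Control B. Both cKO values lay below both Control values although the cKO arrays were brighter, and the standard error over the beads of this probe was between 5.45 and 28.2. The probe at base 2329 gave 135.4 and 96.6 in cKO lenses against 156.1 and 164.7 in Control lenses. The probe at base 2529 was the dimmest, with 78.1 and 78.3 against 106.2 and 86.0. The groups did not overlap at any of these probes, and within the cKO group the lens with the lower value was B at the first 2 probes, while A and B were nearly equal at the last.

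After background correction and normalization, the 3 probes of Dnase2b averaged a log2 signal of 6.38 in cKO A, 5.82 in cKO B, 7.63 in Control A and 7.77 in Control B. The group means were 6.10 ± 0.40 in cKO and 7.70 ± 0.10 in Control (SD, n = 2). Dnase2b was thus reduced by 1.60 ± 0.20 (SE) on the log2 scale, a level 3.04-fold lower in cKO, and passed the test across all genes (limma, adjusted p = 0.0084). The call was lost when Control B was left out (log2 fold change -1.57, adjusted p = 0.058). The size of the change varied with the probe, from 4.97-fold at base 510 to 2.64-fold at base 2329 and 2.14-fold at base 2529, and each probe was called on its own (limma over all probes, adjusted p = 0.0044, 0.021 and 0.0079).

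Trex1, which encodes the main 3′ to 5′ DNA exonuclease of the cytosol and degrades DNA that would otherwise trigger interferon signalling, showed the largest change of the set. The probe at base 761 had an unnormalized intensity of 371.5 in cKO A, 269.6 in cKO B, 1741.7 in Control A and 1475.9 in Control B. The probe at base 851 read 202.4 and 142.3 in cKO lenses against 525.0 and 396.8 in Control lenses. Neither probe had overlapping groups, and cKO B was again the lower of the cKO lenses. The remaining Trex1 probe, at base 20, had 48.7 and 49.4 in cKO against 56.4 and 40.9 in Control. It was above background on Control A alone, with a detection p-value of 0.038, and the filter left it out.

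Averaged over the retained probes, the log2 signal of Trex1 was 7.56 in cKO A, 6.92 in cKO B, 10.07 in Control A and 10.13 in Control B. Means were 7.24 ± 0.46 in cKO and 10.10 ± 0.04 in Control (SD, n = 2). The change was -2.86 ± 0.22 (SE) on the log2 scale, 7.24-fold lower in cKO (limma, adjusted p = 0.0021), which placed Trex1 at rank 6 by size among the 650 genes called reduced. Dnase2b held rank 48 in the same order. The probes gave 9.71-fold (adjusted p = 0.00098) and 5.40-fold (adjusted p = 0.0026) reductions (limma over all probes). Trex1 remained called when any of the 4 samples was left out, with log2 fold changes between -3.17 and -2.53. Atrip, the gene beside Trex1 that works in DNA damage checkpoint signalling, changed by -0.24 on the log2 scale and was not called (limma, adjusted p = 0.28), but was called elevated with no normalization between arrays (0.60, adjusted p = 0.020).

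Alox15 was near the limit of detection. Its probe at base 2008 had an unnormalized intensity of 46.0 in cKO A, 46.0 in cKO B, 71.3 in Control A and 53.4 in Control B. The detection p-values were 0.32 and 0.44 in cKO lenses and 0.0021 and 0.012 in Control lenses, so Alox15 passed the filter only through the Control group and had to differ between groups. As processed here, the Control level was at least 1.68-fold above the lowest detectable signal in cKO (log2 means 4.32 ± 0.02 in cKO and 5.33 ± 0.30 in Control, SD, n = 2, limma adjusted p = 0.018). The bound holds for an offset of 16 only, since the fitted difference shrank to -0.47 on the log2 scale with an offset of 50. It sets the Control mean against, on each cKO array, the higher of the probe's own value and the lowest signal of a detected probe. Without cKO A the adjusted p was 0.068 and without cKO B it was 0.12, and without either Control lens Alox15 could not be tested. The other Alox15 probe, at base 1920, was above background on none of the arrays, with intensities between 38.2 and 45.2.

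**Figure D1:**
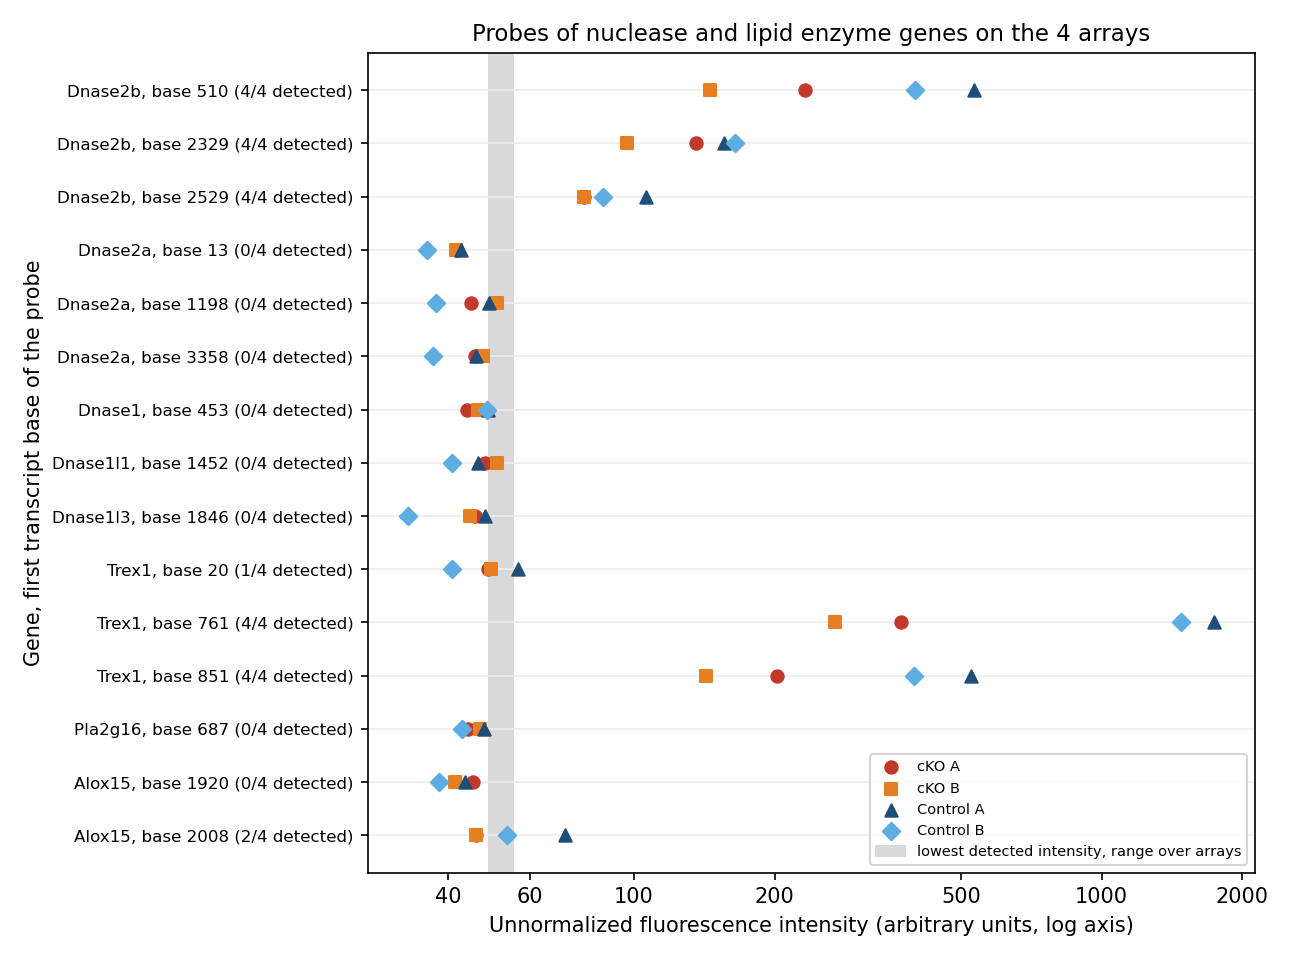
Unnormalized fluorescence intensity (log axis) of each of the 15 probes on the 4 arrays, 1 row per probe, with the grey band spanning the lowest detected intensity over the arrays. The Dnase2b probes and the Trex1 probes at bases 761 and 851 lie right of the band on every array, with both Control symbols right of both cKO symbols, and the other probes lie in or left of the band except, on Control A, Alox15 at base 2008 (71.3) and Trex1 at base 20 (56.4).

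All 3 tested members were called, each reduced in cKO, and all 6 retained probes were called reduced. The share of all 11518 tested genes called in either direction was 11.7%, and the share called reduced was 5.64% (650 genes, against 693 elevated). Among the 16262 probes retained, 5.5% were called reduced. The groups did not overlap for any of the 3 members, and 29.7% of all tested genes likewise had both cKO values under both Control values. Alox15 entered this count only because it was detected in Control, and 3 genes are too few to describe the set as a whole. With 2 lenses in each group, an exact permutation test of a single gene cannot give a p below 0.333, so the calls rest on the variance that limma shares across genes.

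**Figure D2:**
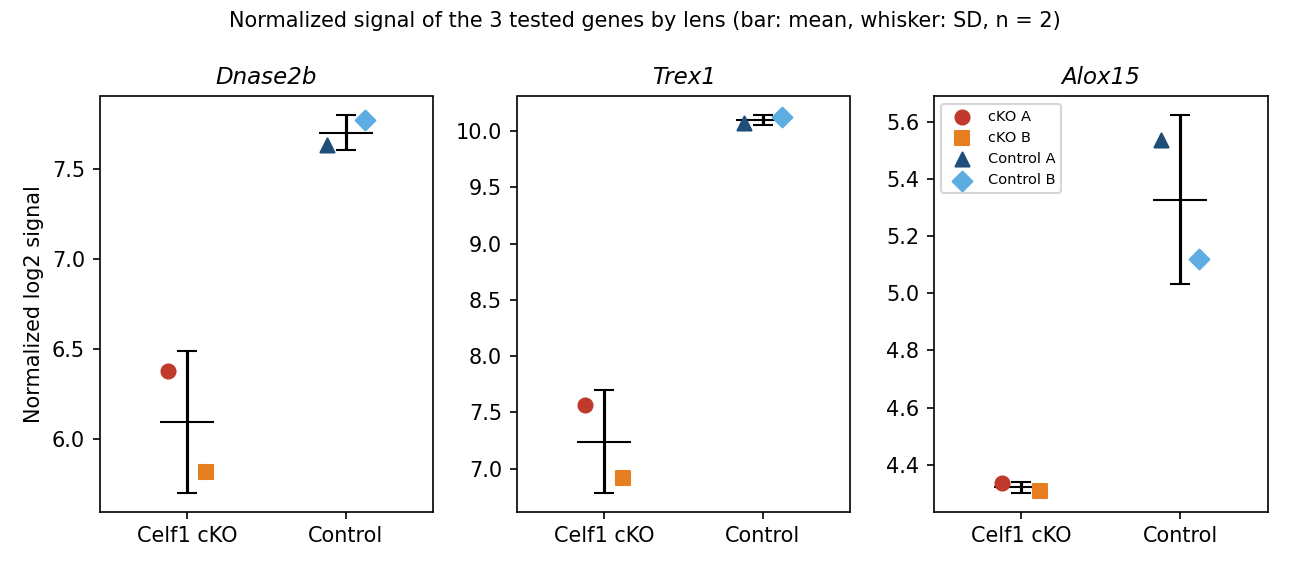
Normalized log2 signal of Dnase2b, Trex1 and Alox15 in each lens, with the mean (bar) and SD (whisker) of each group (n = 2); the vertical axes differ and do not start at 0. Both cKO lenses lie below both Control lenses for each gene, and the cKO lenses differ most for Trex1 (7.56 in A and 6.92 in B).

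The remaining members with a probe were above background on none of the 4 arrays. Dnase2a, the DNase II that degrades engulfed DNA in the lysosomes of most tissues, had 3 probes with unnormalized intensities between 36.0 and 51.0. Dnase1, a secreted endonuclease, had 43.9 and 46.4 in cKO lenses and 48.7 and 48.5 in Control lenses, and its detection p-value of 0.054 on Control B was the closest of this group to the threshold of 0.05. Dnase1l1, an X-linked relative of Dnase1, read 48.1 and 51.0 in cKO against 46.5 and 40.9 in Control. Dnase1l3, a secreted nuclease that cuts chromatin, read 45.6 and 44.6 against 48.0 and 32.9. Pla2g16 read 44.2 and 46.9 against 47.7 and 42.8.

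These intensities were all within the range of the array background, where the lowest detected intensity was 48.9 to 55.0 depending on the array, and the order of samples within it cannot be read as an order of expression. Fitted without the detection filter, the log2 differences (cKO minus Control) were 0.04 for Dnase2a, -0.26 for Dnase1, 0.10 for Dnase1l1, 0.02 for Dnase1l3 and -0.06 for Pla2g16. None was called (limma, adjusted p between 0.42 and 0.94). A change in these 5 genes was not detectable at this signal, which leaves their levels in both groups undetermined.

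The deposited values give the level of the Dnase2b transcript, in which RNA synthesis and decay cannot be told apart, and do not measure its promoter. The paper cites earlier work in which Celf1 bound Dnase2b RNA directly in the lens. The bases before the annotated start of Dnase2b are shown because HSF4 is a known activator of the gene. The sequence covers the 250 bases before the start (RefSeq, GRCm38.p6, chr3:146615599-146615848, minus strand, written 5′ to 3′ along the gene). Capitals mark a match to GAANNTTC, a head-to-head pair of the heat shock element, which begins 230 bases before the start.
Dnase2b promoter: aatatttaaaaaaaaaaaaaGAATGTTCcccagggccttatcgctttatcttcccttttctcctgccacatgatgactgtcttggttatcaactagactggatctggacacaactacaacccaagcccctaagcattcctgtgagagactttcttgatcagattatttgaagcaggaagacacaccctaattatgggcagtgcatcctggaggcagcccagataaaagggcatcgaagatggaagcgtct

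GAANNTTC is its own reverse complement, so the match holds on both strands, and 6.69% of the 32851 promoter windows of this length hold at least 1. No match was found there for TTCNNGAA, the tail-to-tail form, which is likewise its own reverse complement and was present in 7.17% of windows, nor, on either strand, for TATAAA (12.4%) or CCAAT (33.9%). The GAANNTTC match overlaps no other motif searched. The pair of annotated Trex1 promoters held none of these motifs, and no promoter of Alox15 was in the reference used. A match describes letters in this window and no binding was measured.

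Genes related by function to the members were followed as 7 lists, chosen with earlier results of these data known. Over these lists, 107 tested genes gave 22 calls, beside shares of all tested genes of 11.7% called in either direction, 6.02% elevated and 5.64% reduced. The number of calls fell to 11 without cKO A, to 1 without cKO B and to 3 without Control B, so the list counts rest on those samples. Of the 16 called list genes named here by size of change, 13 lost the call when cKO B was left out and likewise 13 for Control B, against 8 for cKO A and 2 for Control A. Sqstm1 kept it in all 4 fits. Cdkn1a and Epg5 could be tested only without a Control lens, where their detection in cKO alone fixed the direction. Scalings that carry the median of all genes to 0.57 (no normalization) and 0.53 (equal array medians) gave 70 calls each and 0 reduced calls in every list, whereas Dnase2b and Trex1 were called reduced under both. The median log2 fold change of all tested genes was 0.01.

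Of 19 other DNA nucleases on the array, 12 were tested and the median change was 0.17. The only call was Samhd1, whose product hydrolyses deoxynucleotides and which was listed here with the nucleases. It was elevated in cKO from log2 signals of 4.80 and 5.03 in Control to 5.66 and 5.49 (change 0.66, limma adjusted p = 0.038). Leaving out any 1 of the 4 samples ended this call, with adjusted p between 0.071 and 0.19, and it fell to 0.36 (adjusted p = 0.15) with equal medians over probes detected in all samples. The other tested nucleases lay between -0.46 and 0.54 on the log2 scale and were not called. Dnase2b at -1.60 and Trex1 at -2.86 lay outside that range, a difference that was not tested.

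Among other phospholipases A and acyltransferases, 13 of 23 genes were tested, with a median of -0.02. Pla2g7, which hydrolyses platelet-activating factor, was reduced by 1.08 on the log2 scale (adjusted p = 0.019, limma). Pnpla6, a lysophospholipase of the endoplasmic reticulum, rose by 0.93 (adjusted p = 0.047) and Pafah1b1, a subunit of the intracellular platelet-activating factor acetylhydrolase that also regulates dynein, by 0.76 (adjusted p = 0.043). Plaat1, a relative of Pla2g16, was above background on 1 Control array and was not tested.

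The lipoxygenase pathway held 7 tested genes of 14, and 2 were called, both reduced. Alox5ap, which presents arachidonate to 5-lipoxygenase, had log2 signals of 5.37 and 5.17 in cKO against 5.87 and 6.42 in Control, a change of -0.88 (limma, adjusted p = 0.039). Alox12, the platelet-type 12-lipoxygenase, had 6.89 and 6.90 against 7.69 and 7.58, a change of -0.74 (limma, adjusted p = 0.021). The sign of the Alox12 change turned under scalings that carry the median of all genes up by more than 0.5, where it was 0.077 and 0.039, below that median. The median of the list was -0.32.

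Regulators of nucleus loss were mostly above background, with 23 of 25 genes tested, of which 5 were called reduced and 2 elevated around a median of -0.22. Cdkn1a, which encodes the cyclin-dependent kinase inhibitor p21, had log2 signals of 7.91 and 9.32 in cKO and 4.48 and 4.47 in Control, where it was above background on neither array. As processed here, its cKO level was at least 14.7-fold above that of Control (limma, adjusted p = 0.0042). The bound was 9.01-fold with cKO A alone and 23.8-fold with cKO B alone. It does not hold across the processing. The fitted log2 difference was 4.14 as reported, 2.95 with an offset of 50 and 3.14 with no background correction. Cdkn1a passed the filter only through cKO, so it had to differ and could not be tested without either cKO lens. Lmna, the gene of lamin A and C, was elevated by 1.13 (adjusted p = 0.013, limma) and Maf, a transcription factor of fiber differentiation, was reduced by 1.14 (adjusted p = 0.014). The other reduced calls were Caprin2, Foxe3, Rbm24 and Tdrd7.

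Hsf4 was well above background in every lens, with log2 signals of 10.90 and 10.97 in cKO and 11.35 and 11.38 in Control. Its change of -0.43 ± 0.13 (SE) did not pass the test (limma, adjusted p = 0.079). The groups did not overlap, and 29.7% of all tested genes likewise had both cKO values under both Control values. The adjusted p (limma) was 0.033 with no background correction, 0.028 with an offset of 50 and 0.036 with an intensity trend. The change in those fits (-0.42, -0.42 and -0.43) was smaller in size than the limit of 0.58, so Hsf4 was not called. In every other alternative the adjusted p was above 0.05. The sign of the Hsf4 change turned, to 0.36 with no normalization between arrays and to 0.32 with equal array medians. Both values were below the median shift of all genes under those scalings. Cdkn1b, the p27 kinase inhibitor, changed by -0.39 and was not called (limma, adjusted p = 0.18), but was called with equal medians over probes detected in all samples (-0.81, adjusted p = 0.015).

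Mitochondrial and autophagic clearance was, as processed here, the list with the most elevated calls, 5 of 16 tested genes. None was reduced and the median was 0.20. The 5 include Epg5, whose direction was set by its detection in cKO alone. Sqstm1, the autophagy receptor p62, had log2 signals of 12.35 and 12.66 in cKO against 10.32 and 10.28 in Control, a change of 2.20 (limma, adjusted p = 0.0020). Atg5, part of the complex that lipidates LC3, rose by 1.26 (adjusted p = 0.0086, limma). Epg5, which tethers autophagosomes to lysosomes, was not above background in Control and was at least 1.64-fold higher in cKO as processed here (limma, adjusted p = 0.014). It passed the filter only through cKO and so had to differ. The bound does not hold across the processing, since the fitted difference was 0.45 on the log2 scale with an offset of 50 and 0.50 with equal medians over probes detected in all samples, where the call was lost. Bnip3l, a mitophagy receptor that clears mitochondria from reticulocytes and lens fibers, changed by -0.09 and was not called (limma, adjusted p = 0.71). It was called elevated with no normalization between arrays (0.78, adjusted p = 0.0069) and with equal array medians (0.74, adjusted p = 0.012), where the median of all genes was also raised.

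Lysosomal hydrolases and membrane proteins had 25 of 27 genes tested and a median of 0.32, with 3 elevated and none reduced. These were Scarb2, the receptor that carries glucocerebrosidase to lysosomes (1.13, adjusted p = 0.014, limma; above background on 1 of the Control arrays), Npc2, a cholesterol carrier (0.81, adjusted p = 0.040), and the membrane protein Lamp2 (0.71, adjusted p = 0.024). The product of Dnase2b is itself lysosomal, and its transcript was reduced.

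Cytosolic DNA sensing, the pathway that TREX1 restrains, had 11 of 21 genes tested and 1 call. Zbp1, a sensor of Z-form nucleic acids, was reduced by 0.65 (limma, adjusted p = 0.029), a difference that shrank to -0.01 and -0.05 under the scalings that raise the median of all genes. The cGAMP synthase gene Cgas was above background on no Control array, so no size is given for it, and it was not called (limma, adjusted p = 0.20). Its adaptor Sting1 changed by -0.17 and was not called (limma, adjusted p = 0.50). The median of the list was 0.02.

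**Figure D3:**
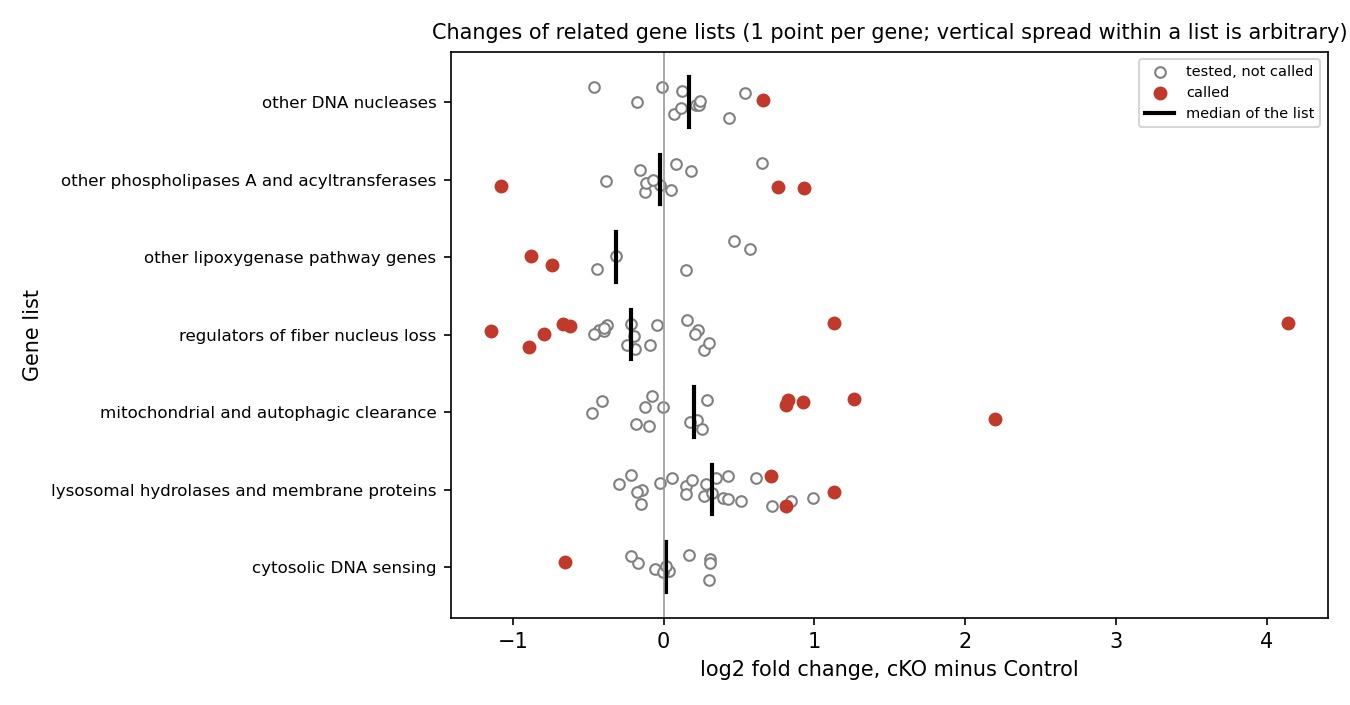
log2 fold change (cKO minus Control) of each tested gene in the 7 related lists, with filled points for called genes and a bar at each list's median. The autophagic list holds the largest number of elevated calls (5 of 16 tested genes) and the regulators of nucleus loss the largest number of reduced calls (5 of 23). The elevated calls include Epg5 and Cdkn1a, whose direction was set by detection in cKO alone. The point at 4.14 is Cdkn1a, whose value is a fit against a Control group at background.

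Markers of the cell types that a lens sample could hold were read beside these results. The 9 lens fiber markers had a median change of -0.12 and 1 call, Bfsp2, reduced by 0.76 (limma, adjusted p = 0.023). Their summed normalized signal was 182306 and 176746 in cKO against 198003 and 200523 in Control. Quantile normalization gives equal ranks equal values, and some of these markers lay at the top of the range. Mip was 14.75 in cKO A, Control A and Control B, and Crybb2 was 15.19 in cKO A and Control B. This limits how far the fiber sum can differ between groups, and it is no measure of fiber content. The 7 tested epithelial markers had a median of -0.54 with Foxe3 and Sparc called reduced, and a summed signal of 1622 and 1711 against 2570 and 2156. Dnase2b and Trex1 moved in the same direction as these lists, and the part of either list in their change was not tested.

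Macrophages and blood cells are sources of Trex1 and Alox15 in other tissues. Of 11 macrophage markers, 4 were tested, with a summed signal of 125.6 and 122.5 in cKO against 99.98 and 103.9 in Control. Csf1r and Aif1, the markers of this list detected on all 4 arrays, changed by -0.11 and -0.06 and were not called (limma, adjusted p = 0.64 and 0.79). Cd68 and C1qb were above background on both cKO arrays and no Control array, so that they passed the filter only through cKO and had to be higher there, and the higher sum in cKO comes from them. C1qa and Fcer1g were above background on 1 cKO array and no Control array, Lyz2 on 1 array of each group, and Ptprc, Adgre1, Tyrobp and Mpeg1 on none. In all, 4 and 7 of the macrophage markers were detected on the cKO arrays against 2 and 3 on the Control arrays, which were also the dimmer arrays. Of 6 blood cell markers, 3 were tested, with a summed signal of 754.7 and 350.4 against 630.4 and 522.9. Slc4a1, the anion exchanger of red cells, was reduced by 1.03 (limma, adjusted p = 0.011), the hemoglobin genes Hba-a1 and Hbb-b1 were not called, and Alas2 was below background on all arrays. The part of macrophages in the Trex1 and Alox15 differences, and of blood cells in the Alox15 difference, was not tested.

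The genes whose centred log2 values over the 4 samples lay closest to those of Dnase2b were LOC100041613 (Euclidean distance 0.056), Actb (0.069), Nyx (0.11), Sesn1 (0.12) and Rasgrp1 (0.15). Trex1 was at a distance of 1.26 from Dnase2b, because its groups lay farther apart. With 4 samples in 2 groups, such a distance mostly describes the size of the group difference and the spread within each group.

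Dnase2b and Trex1 were reduced under every alternative. Over the 18 alternatives that used all samples, the Dnase2b change ranged from -2.31 to -0.88 and was called in 15, and the Trex1 change ranged from -3.28 to -1.95 and was called in 17. The sign of Alox15 was set by its detection in Control alone, so its values under the alternatives say nothing of its stability.

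**Figure D4:**
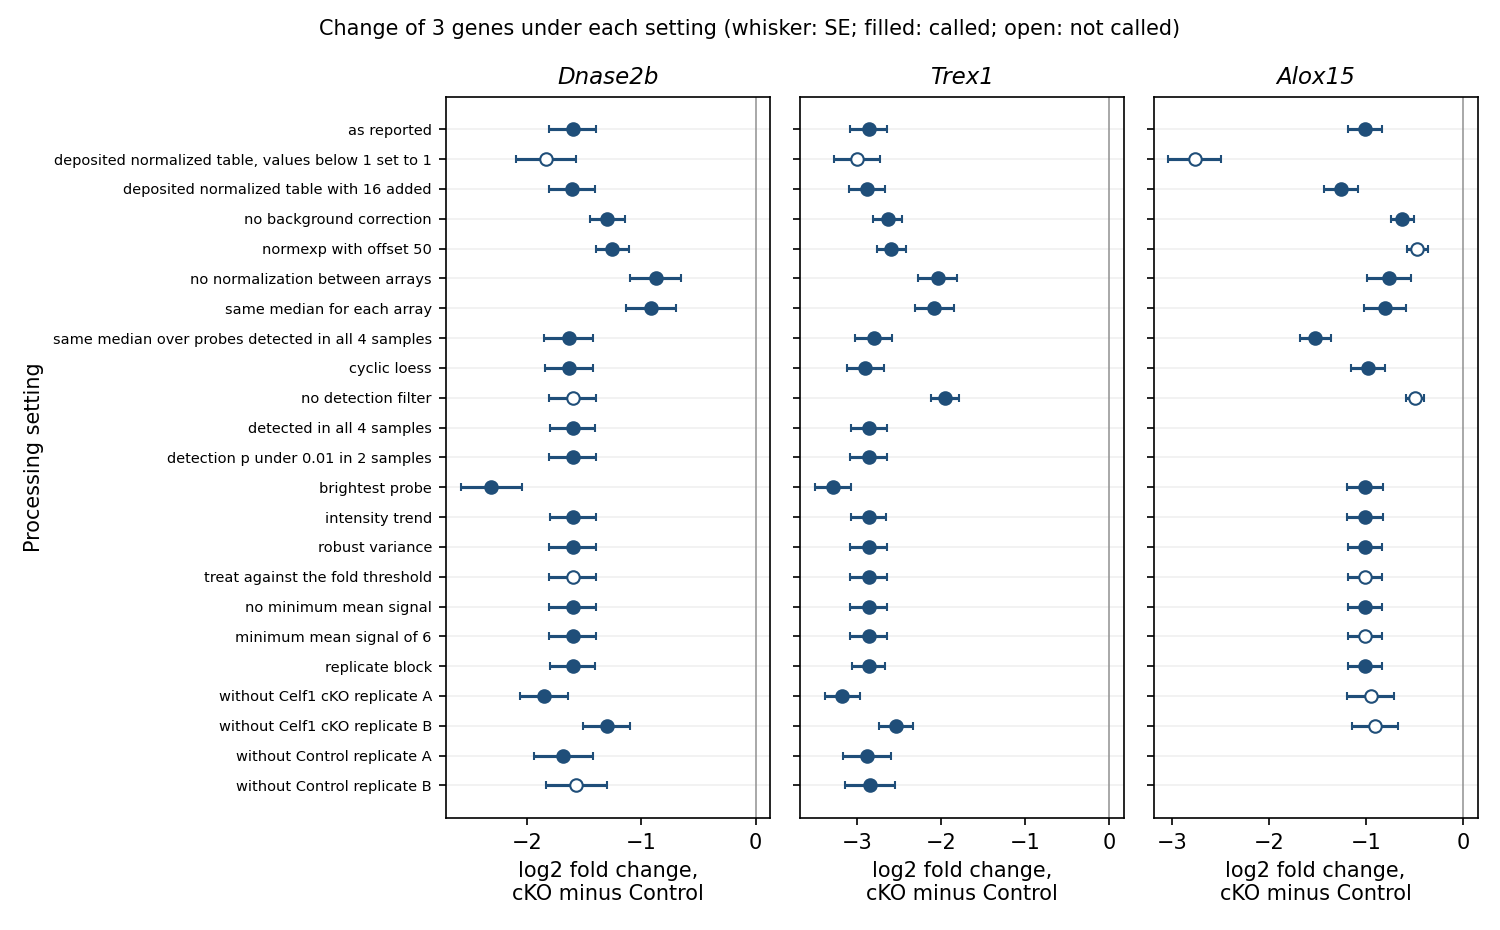
log2 fold change (cKO minus Control) of Dnase2b, Trex1 and Alox15 as reported and under each of 22 alternatives, with the SE as whisker, filled points where the gene was called and no point where it could not be tested. Every point of Dnase2b and Trex1 lies below 0, Trex1 is open once, the direction of Alox15 is set by its detection in Control alone, and Alox15 is open or missing in every fit that leaves out a sample or changes the detection filter.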

How the data were processed

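Total RNA of 4 lens samples (2 Celf1 cKO, 2 Control, grouped by their titles) was measured on Illumina MouseWG-6 v2.0 arrays. The authors deposited unnormalized and normalized fluorescence intensity per probe, with detection p-values that rank each probe against negative control beads, and with bead numbers. Both tables were exported from the scanner's software, and per the file headers the deposited normalized intensity had undergone rank-invariant scaling.

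Of 45281 probes, 18 lines with shifted cells were left out, none of them a member. Probes were named through a RefSeq gene table (GRCm38.p6) by Entrez identifier (29586), accession (2759), symbol (2197) or older symbol (2371), and 8350 kept the name in the file. Unnormalized intensity was background corrected from the detection p-values (normexp, offset 16), quantile normalized and converted to log2 with limma version 3.58.1 (R version 4.3.3). Probes with a detection p under 0.05 in at least 2 samples were retained, and probes of a gene were averaged. Groups were compared with lmFit and eBayes, two-sided, and p-values were adjusted by the Benjamini-Hochberg method across the genes tested. Calls required 3 things: an adjusted p below 0.05, a log2 change beyond 0.58 in size, and a mean log2 signal above 4.6. These limits follow the study's methods, whose edgeR model for counts was not applied because the values are intensities. Tables and figures used Python version 3.11.15, and the fit was tested on simulated data. Where a group had no array with a gene above background, the fold as reported is a bound for this processing, and values under other settings are fitted differences and no bounds.

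The members and the related and marker lists were chosen with earlier results of these data known. The genes named are the members, Celf1, up to 3 called genes of largest change in each related list, Hsf4, Cdkn1a, Cdkn1b, Plaat1 and Bnip3l, the 5 genes most like Dnase2b, and marker genes at issue for a member. Atrip, Cgas, Sting1, Csf1r, Aif1 and the further called regulators were named after their values were seen. Alternatives covered the table, background correction, scaling, detection filter, probe rule, variance model, fold and signal thresholds, the replicate letter as a block, and each sample left out. The number of arrays limits the precision. The replicate letters did not pair the samples (correlation of deviations -0.01).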

Additional observations from a re-analysis of the deposited data

How the results depend on the processing

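Dnase2b and Trex1 were reduced under every alternative. Calls were lost for Dnase2b with the deposited normalized table floored at 1 (-1.83, adjusted p = 0.071), with no detection filter (-1.60, adjusted p = 0.065) and with treat against the fold threshold (-1.60, adjusted p = 0.079), and it ranged from -1.85 to -1.30 with 1 sample left out. Trex1 lost its call with the floored table (-3.00, adjusted p = 0.057). For Alox15, whose sign was set by its detection in Control alone, the fitted differences are no bounds. It lost its call with the floored table (-2.76, adjusted p = 0.057), an offset of 50 (-0.47), no detection filter (-0.50), treat (-1.01) and a minimum signal of 6 (-1.01), ranged from -0.95 to -0.90 without a cKO sample, and could not be tested without a Control sample, with detection in all 4 samples or at a detection p under 0.01. Of the 3 members called, 0 remained with the floored table and 1 with no filter, treat or a sample left out at the lowest (range 1 to 2). The 1343 calls over all genes (51.6% elevated) became 7 with the floored table (71.4% elevated, 3165 genes at an unadjusted p under 0.05), 789 with an offset of 50, 5790 with no normalization (97.7% elevated), 5418 with equal medians (97.3%), 2691 with equal medians over probes detected in all samples (24.8%), 207 with no filter, 86 with treat, 880 with a minimum signal of 6, and 163 to 1364 with 1 sample left out. These scalings moved the median of all genes to 0.57, 0.53 and -0.19. The 22 calls over the related lists became 0 with the floored table, 70 with no normalization and with equal medians, 2 with no filter and with treat, and 1 to 20 with 1 sample left out. Signs turned, without normalization and with equal medians respectively, for Alox12 (0.077 and 0.039), Hsf4 (0.36 and 0.32), Atrip (0.60, called, and 0.56) and Bnip3l (0.78 and 0.74, both called), and for Bnip3l also with equal medians over detected probes (0.018) and over a range of -0.24 to 0.063 with 1 sample left out. Celf1 lost its call with the floored table (adjusted p = 0.076), no filter (0.072) and treat (0.13). The deposited table with 16 added in place of the floor kept the calls of Celf1 and of all 3 members (Dnase2b -1.61, adjusted p = 0.0096; Trex1 -2.88, 0.0029; Alox15 -1.26, 0.013), with 1191 calls over all genes (44.8% elevated) and 20 over the lists. The causes were not tested. With the replicate block, Dnase2b kept -1.60 (adjusted p = 0.00070), 1686 genes were called, and no call of a member changed. The replicate letters are names only, since the paired deviations correlated at -0.01. Intensities within the background limit what can be said of Dnase2a, Dnase1, Dnase1l1, Dnase1l3, Pla2g16 and Alox15.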
